A study of Mus musculus with 8 samples.

Results

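The Adamts genes encode secreted zinc proteases that carry thrombospondin type 1 repeats and act on the extracellular matrix. The 10 genes described here (Adamts1, Adamts2, Adamts4, Adamts5, Adamts7, Adamts9, Adamts10, Adamts12, Adamts15 and Adamts20) were taken by their symbols from the 23284 symbols in the count files. To determine how Notch3 activity changes transcription, RNA-seq was performed on ID8 IP2 cells, a mouse ovarian surface epithelial tumor line obtained by passing ID8 cells through C57BL/6 mice. The Notch3IC lines carry a lentiviral construct (pCCL) for the HA-tagged inner part of Notch3, its intracellular domain, and for GFP behind an IRES. This part of the receptor needs neither ligand nor cleavage to signal. Control lines were infected with the empty pCCL vector. Sets 1 to 4 are independent infections, each with 1 Control and 1 Notch3IC line, for 4 libraries per condition and 8 in all. According to the methods of the study, all lines were grown in DMEM with FBS, ITS supplement and antibiotics, also carried a lentiviral luciferase-mCherry vector, and were probably mycoplasma positive, as judged by post-hoc testing. The data therefore describe 1 cell line in culture.

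Adamts proteases are made as precursors with a propeptide, which furin-type convertases commonly remove inside or outside the cell, and most act near the cell surface or in the matrix. Family members differ in what they cut. One group cleaves the hyaluronan-binding proteoglycans versican and aggrecan, another removes the amino-terminal propeptide of fibrillar procollagens, a pair cleaves cartilage oligomeric matrix protein, and Adamts10 associates with fibrillin microfibrils. In the ovary, Adamts1 is known for versican cleavage in the follicle at ovulation.

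The catalytic zinc site is what the 10 genes share, and its coding sequence is printed to compare the genes at this site. The signature was found in the GENCODE M21 transcript of each of the 10 genes, as 33 bases whose capitals mark the codons of the 3 histidines that hold the zinc, of the glutamate beside the first histidine, and of the residue at position 8, counted from the first histidine. The sequences of some of the genes that are compared below are shown, 5′ to 3′ on the coding strand.
Adamts2: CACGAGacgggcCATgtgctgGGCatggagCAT
Adamts3: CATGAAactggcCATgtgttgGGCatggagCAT
Adamts14: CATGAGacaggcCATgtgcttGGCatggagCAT
Adamts7: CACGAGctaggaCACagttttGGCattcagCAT
Adamts12: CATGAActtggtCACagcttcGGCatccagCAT
Adamts1: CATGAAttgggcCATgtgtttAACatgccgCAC
Adamts4: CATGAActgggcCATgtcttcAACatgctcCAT
In GRCm38 coordinates, the Adamts2 site lies at chr11:50775403-50776134 (plus strand, junction of exons 7 and 8), the Adamts12 site at chr15:11241529-11255564 (plus strand, junction of exons 7 and 8), and the Adamts4 site at chr1:171253210-171253915 (plus strand, junction of exons 3 and 4). The search allowed only glycine or asparagine at position 8, whereas the signature first planned had glycine alone there. Position 8 was an asparagine codon in Adamts1, Adamts4, Adamts9, Adamts15 and Adamts20, and a glycine codon in Adamts2, Adamts5, Adamts7, Adamts10 and Adamts12. Adamts2 shared all 11 encoded residues with Adamts3 and with Adamts14, the other procollagen N-proteinases. Adamts7 and Adamts12 also shared all 11 residues, with 26 of 33 bases identical. Adamts1 shared all 11 with Adamts9 and with Adamts15. Adamts1 and Adamts4 shared 10 of 11 residues, and Adamts1 shared 5 of 11 with Adamts5. Adamts5 shared more, 7 of 11, with the procollagen N-proteinase Adamts2. The search fixed the 3 histidines and the glutamate, so every pair shares these. Identity at so short a site is a description and does not show kinship.

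From Set 1 to Set 4, the Control libraries held 24910528, 19013578, 23601232 and 28208072 counts, and those of Notch3IC held 22980440, 15524262, 25344051 and 27107061. The labels were checked first with Notch3, whose row also collects reads from the introduced intracellular domain. Notch3 was at 38.6, 40.6, 70.8 and 42.0 normalized counts (counts scaled for library size and composition) in Control and at 4319, 467, 9215 and 5839 in Notch3IC, so every Notch3IC library was above every Control library and that of Set 2 was the lowest of the 4. The Notch targets Hey1, Heyl and Nrarp were called higher too, with log2 fold changes of 7.35 (SE 0.99), 11.56 (SE 1.43) and 7.34 (SE 1.02) and an adjusted p of 0.0169 for each. Heyl had 0 to 2 counts in the Control libraries, so the size of its fitted change depends on the prior count of the fit. Most exon bases of Nrarp, 79.4% of them, overlap a gene on the opposite strand in the annotation.

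The tissue label was checked with a list of ovarian surface epithelium and mesothelium markers. Wt1, Upk3b, Krt8 and Krt19 were abundant in Control, at means of 12328, 21809, 3318 and 4454 normalized counts, whereas Epcam (5 to 12 counts per Control library) and Krt7 (2 to 46) were low. Of the 7 markers of this list that were tested, none was called higher and 1 was called lower (3 with the matched set as a term), the mesothelial antigen Msln, which fell from 2348 ± 1151 (SD, n = 4) to 389 ± 290 normalized counts (SD, n = 4; adjusted p = 0.0625). The list summed to 21537, 39829, 63193 and 61494 normalized counts in Control and to 7037, 25603, 24064 and 18349 in Notch3IC, with Upk3b the most abundant gene. Each sum was lower in Notch3IC than in the Control library of the same set. Across all genes tested, 0.74% were called lower, and 2.53% with the matched set as a term.

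Of the 10 Adamts genes, 8 had enough counts to be tested for a difference between Notch3IC and Control. A gene was called when its Benjamini-Hochberg adjusted p from edgeR was under 0.1 and its log2 fold change was at least 1 in size. Adamts2, Adamts4 and Adamts12 were called higher in Notch3IC, and 0 of the 8 were called lower, with 0 falling at an unadjusted p under 0.05 and 0 called lower by DESeq2. Across all 12430 genes tested, 423 (3.4%) were called higher and 92 (0.74%) lower. At an unadjusted p under 0.05, 827 of the 12430 genes fell, and DESeq2 called 192 genes lower in all. The median log2 fold change was 0.48 over the 8 Adamts genes and -0.01 over all genes tested. In bulk libraries such as these, fewer cells expressing a gene and less RNA per cell cannot be told apart.

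**Figure D1:**
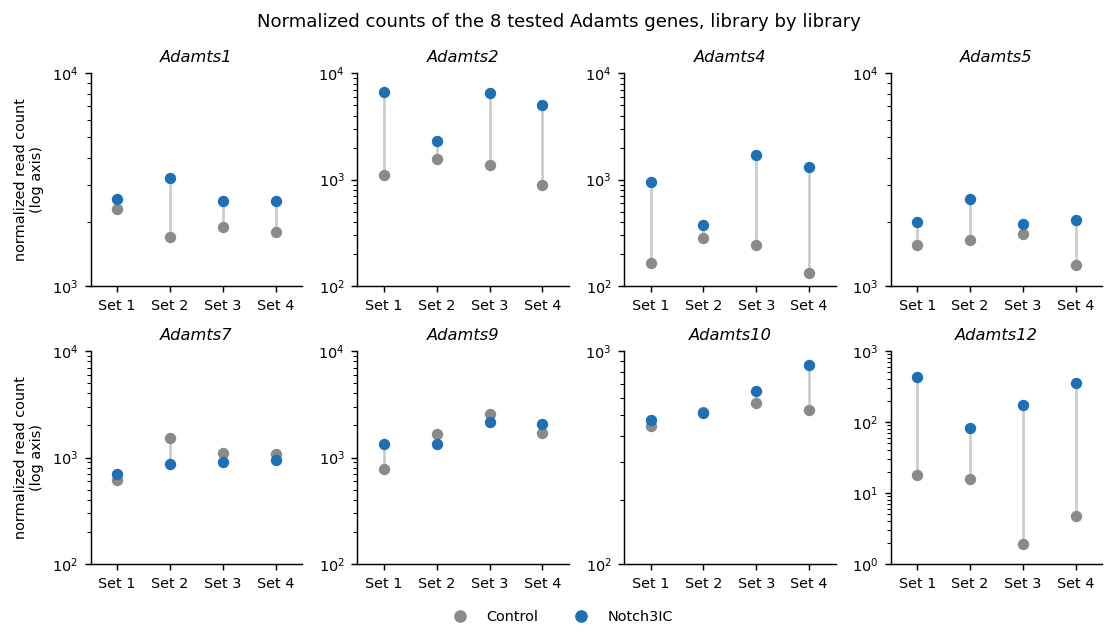
Normalized read counts (log axis, a separate scale in each panel) of the 8 tested Adamts genes in each matched set, with gray points for Control, blue points for Notch3IC and a gray line joining the 2 libraries of a set. The blue points of Adamts2, Adamts4 and Adamts12 lie above every gray point of the same panel, from 2304, 375 and 83.5 normalized counts upward, and the points of Adamts7, Adamts9 and Adamts10 intermix.

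Among the proteoglycan-cleaving members, Adamts4, an aggrecanase that also cleaves versican, showed the largest rise. From Set 1 to Set 4, Adamts4 was at 164, 280.4, 241 and 132 normalized counts in Control and at 942, 375, 1704 and 1323 in Notch3IC. All Notch3IC values were above all Control values, with the Notch3IC library of Set 2 closest to the Control range. The mean rose from 204 ± 68.6 (SD, n = 4) to 1086 ± 567 (SD, n = 4), a log2 fold change of 2.42 (SE 0.45, 95% interval 1.39 to 3.45, adjusted p = 0.0326). Within sets, the fold was 5.76, 1.34, 7.07 and 10.1 in Sets 1 to 4, and the counting interval in Set 2 was 1.12 to 1.60. The call of Adamts4 was lost when 1 library was left out in 3 cases, the Set 3 Control (adjusted p = 0.107), the Set 4 Control (adjusted p = 0.122) and the Set 4 Notch3IC library (adjusted p = 0.108). Its log2 fold changes in these 3 cases were 2.51, 2.25 and 2.31.

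Adamts1, a versican-cleaving protease, was at 2295, 1699, 1898 and 1795 normalized counts in Control and at 2574, 3229, 2520.1 and 2514 in Notch3IC. The 2 groups did not overlap, and the ratio was smallest in Set 1 (1.12-fold) and largest in Set 2 (1.90-fold). The log2 fold change was 0.49 (SE 0.13, 95% interval 0.21 to 0.78, adjusted p = 0.0746), under the fold limit, so Adamts1 was not called. Adamts5, the other main aggrecanase, was at 1559, 1652, 1761 and 1261 normalized counts in Control and at 1993, 2554, 1951 and 2050.1 in Notch3IC. These groups did not overlap either, and all 4 sets were higher in Notch3IC, by 1.11-fold in Set 3 to 1.63-fold in Set 4. The log2 fold change of Adamts5 was 0.46 (SE 0.13, 95% interval 0.15 to 0.76, adjusted p = 0.107). With the matched set as a term in the fit, the adjusted p of Adamts5 was 0.0431 with a log2 fold change of 0.46, still under the fold limit. Adamts1 and Adamts5 lie beside each other on the minus strand of chromosome 16, at chr16:85793827-85803113 and chr16:85856173-85901828 in GRCm38.

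Adamts9, a versican- and aggrecan-cleaving protease, did not separate the conditions. It was at 779.9, 1662, 2590.5 and 1701 normalized counts in Control and at 1335, 1340.0, 2153 and 2073 in Notch3IC. The ranges overlapped, and the Notch3IC library was higher in Sets 1 and 4 and lower in Sets 2 and 3. The log2 fold change was 0.04 (SE 0.34, 95% interval -0.73 to 0.80, adjusted p = 0.973). In the annotation, 12% of the exon bases of Adamts9 overlap A730049H05Rik on the opposite strand, and whether the counting used strand is not given in the sources used here. The last 2 genes of this group were at or near 0. Adamts15 had 0 counts in all Control libraries and 0, 1, 0 and 1 counts in the Notch3IC libraries of Sets 1 to 4, and Adamts20 had 0 counts in all 8. A count of 0 allows up to 3 counts, which is 0.106 to 0.193 CPM in these libraries, for counting error only.

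Adamts2 removes the amino-terminal propeptide of procollagens I, II and III, a step needed for normal fibril assembly. Adamts2 was at 1102, 1555, 1375 and 882 normalized counts in Control and at 6710.0, 2304, 6477 and 4988 in Notch3IC. Every Notch3IC library was above every Control library, and Set 2 again stood lowest in Notch3IC while its Control library was the highest. The mean rose from 1228 ± 297 (SD, n = 4) to 5120 ± 2026 (SD, n = 4), a log2 fold change of 2.06 (SE 0.34, 95% interval 1.29 to 2.83, adjusted p = 0.0247). The within-set fold was 6.09, 1.48, 4.71 and 5.66 in Sets 1 to 4. The call of Adamts2 was lost without the Control library of Set 3 (adjusted p = 0.103), where its log2 fold change was 2.12.

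The pair of N-proteinases closest to Adamts2, which were not among the 10 genes, had other values. Adamts3 was at 1759.95, 1978, 1023 and 846 normalized counts in Control and at 659, 1888, 309 and 455 in Notch3IC. It was lower in the Notch3IC library of 4 of 4 sets, by little in Set 2, and the groups overlapped because of that library. The log2 fold change of -0.77 (SE 0.56) did not pass the test on condition alone (adjusted p = 0.521), and Adamts3 was called lower with the matched set as a term (log2 fold change -1.02, SE 0.28, adjusted p = 0.0657). Once the Set 2 Notch3IC library was left out, the condition-alone fit also called it lower (log2 fold change -1.57, adjusted p = 0.0413), as it did with both Set 2 libraries left out (log2 fold change -1.35, adjusted p = 0.0860). With any other library or set left out, Adamts3 was not called (log2 fold change -0.95 to -0.49, adjusted p 0.562 to 0.898). Adamts14 was higher in 4 of 4 sets, with a mean of 561 ± 89.0 in Control and 995 ± 328 in Notch3IC (SD, n = 4 each), and was not called (log2 fold change 0.83, SE 0.26, adjusted p = 0.129). Its Set 2 libraries hardly differed, at 503 and 527 normalized counts, and with the Set 2 Notch3IC library left out Adamts14 was called higher (log2 fold change 1.04, adjusted p = 0.0053). With both Set 2 libraries left out Adamts14 was not called, as its log2 fold change of 0.99 (adjusted p = 0.0172) was under the fold limit. Nor was Adamts14 called with any other library or set left out (log2 fold change 0.64 to 0.92, adjusted p 0.159 to 0.700).

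Per kilobase of exon, Adamts3 was the most abundant of the 3 N-proteinases in all 4 Control libraries, with 58.2, 58.0, 40.6 and 45.6% of their summed level. Adamts2 was the most abundant in the Notch3IC libraries of Sets 1, 3 and 4, with 69.5, 70.4 and 62.6% of the sum. In the Notch3IC library of Set 2, Adamts3 still led with 49.96% against 35.5% for Adamts2. The summed level of the 3 genes was 557, 628, 464 and 342 normalized counts per kb in Control and 1034, 696, 985 and 854 in Notch3IC, higher in Notch3IC in each set. The order depends on the exon lengths, 9.336 kb for Adamts2 and 5.43 kb for Adamts3, which come from a later build than that of the files. Before division by length, Adamts2 was above Adamts3 in the Set 3 Control (1375 against 1023 normalized counts) and the Set 4 Control (882 against 846). The same held for the Set 2 Notch3IC library (2304 against 1888). The shares are a description and were not tested.

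**Figure D2:**
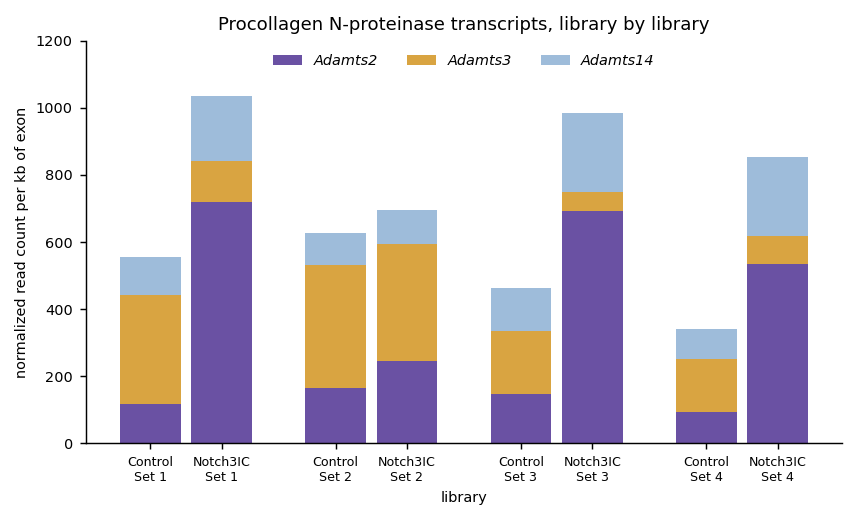
Stacked bars of the normalized read count per kilobase of exon of Adamts2, Adamts3 and Adamts14 in each library, with Control and Notch3IC side by side for Sets 1 to 4. Adamts2 is the largest segment in the Notch3IC bars of Sets 1, 3 and 4 (62.6 to 70.4% of the bar) and Adamts3 in the 4 Control bars (40.6 to 58.2%). The order of the segments depends on the exon lengths used.

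Adamts12, which like Adamts7 cleaves cartilage oligomeric matrix protein, rose from a low level and had the largest fold change of the 8. Its raw counts in Control were 18, 13, 2 and 6 from Set 1 to Set 4, or 17.8, 15.5, 1.91 and 4.75 normalized counts. The Notch3IC libraries had 385, 57, 187 and 416 raw counts, or 430.3, 83.5, 172 and 351 normalized counts. The groups did not overlap, and the lowest Notch3IC library was that of Set 2. The mean rose from 10.0 ± 7.85 (SD, n = 4) to 259 ± 159 (SD, n = 4), a log2 fold change of 4.72 (SE 0.74, 95% interval 3.02 to 6.42, adjusted p = 0.0243). Within sets, the fold was 24.1 (95% counting interval 15.1 to 41.1) in Set 1 and 5.38 (2.91 to 10.7) in Set 2. It was 89.8 (24.5 to 747) in Set 3, where the Control library had 2 counts, and 73.9 (33.7 to 202) in Set 4. The call of Adamts12 held without any single library. The counting intervals cover counting error only, since reads without molecular identifiers are not independent molecules.

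Adamts7, the other protease of the pair, did not pass the test. It was at 616, 1541, 1105 and 1078 normalized counts in Control and at 696, 876, 916 and 954 in Notch3IC. The groups overlapped, with the Notch3IC library lower in Sets 2, 3 and 4 and higher in Set 1. The log2 fold change was -0.33 (SE 0.25, 95% interval -0.90 to 0.23, adjusted p = 0.533). Adamts10, a microfibril-associated member, was at 443, 520.2, 573 and 529 normalized counts in Control and at 474, 511, 650.7 and 861 in Notch3IC. Set 4 held the largest difference, 1.63-fold, and the groups overlapped. The log2 fold change was 0.28 (SE 0.19, 95% interval -0.17 to 0.72, adjusted p = 0.507).

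**Figure D3:**
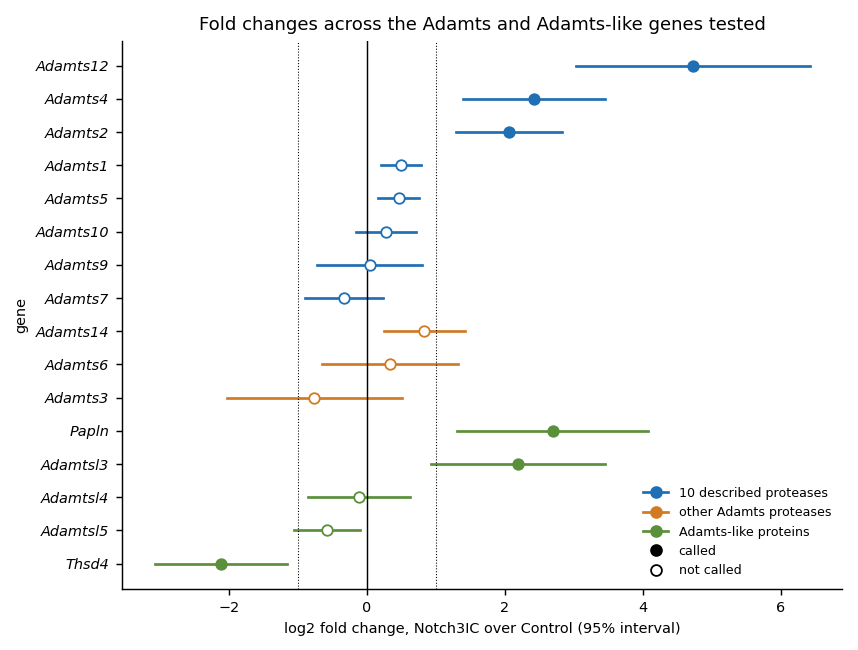
Log2 fold change of Notch3IC over Control with its 95% interval for the 8 tested Adamts genes described here, 3 other Adamts proteases and 5 Adamts-like genes, with filled points for called genes and dotted lines at the fold limit of 1 in either direction. The intervals of Adamts2, Adamts4 and Adamts12 lie wholly above 1 (lower bounds 1.29, 1.39 and 3.02), as does that of Papln (lower bound 1.30). The interval of Thsd4 lies wholly below -1, and those of Adamts7, Adamts9 and Adamts10 span 0.

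Read library by library, 5 of the 8 tested genes (Adamts1, Adamts2, Adamts4, Adamts5 and Adamts12) had every Notch3IC value above every Control value, and 0 had the reverse. Across all genes tested, 7.08% separated with Notch3IC higher and 3.75% with Notch3IC lower. With the matched set as a term, the same 3 Adamts genes were called higher and 0 lower, beside 5.19% of all genes called higher and 2.53% lower. Leaving out both libraries of Set 3 or both of Set 4 left 0 of the 3 called by edgeR, and it left 1 and 0 genes called higher in the whole table. In each case 5 of the 8 genes stayed above 0 at an unadjusted p under 0.05. Across all genes tested, 806 of 12418 did so without Set 3 and 742 of 12378 without Set 4. Without Set 4, the log2 fold changes of the 3 called genes were 1.95 for Adamts2, 2.15 for Adamts4 and 4.28 for Adamts12.

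The rises of the 3 called genes were smallest in Set 2. The within-set log2 ratio of Notch3 itself was 6.79, 3.51, 7.01 and 7.10 in Sets 1 to 4. The corresponding log2 ratios were 2.61, 0.57, 2.24 and 2.50 for Adamts2 and 2.52, 0.42, 2.82 and 3.33 for Adamts4, and 4.55, 2.39, 6.16 and 6.06 for Adamts12. Set 2 thus had the lowest log2 ratio of each of these 4 genes. For Adamts12, with few Control counts, a pseudocount of 5 in place of 0.5 gave log2 ratios of 4.25, 2.11, 4.68 and 5.19, with Set 2 still lowest and Set 4 in place of Set 3 highest. Adamts1 instead had its highest log2 ratio, 0.93, in Set 2 and its lowest, 0.17, in Set 1. With 1 library per condition in a set, the difference between sets was not tested.

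**Figure D4:**
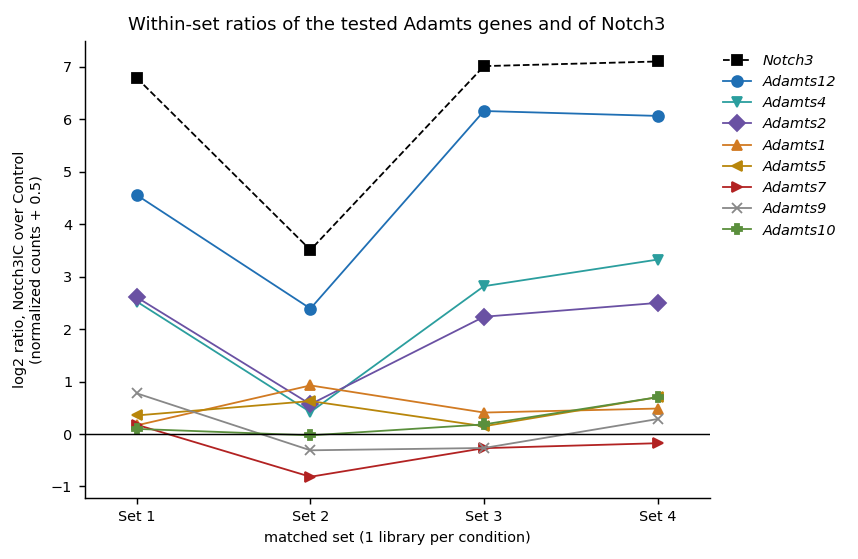
Log2 ratio of Notch3IC over Control within each matched set for the 8 tested Adamts genes and Notch3 (dashed), from normalized counts plus 0.5, where lines only join the points of a gene and the sets have no order. The lines of Notch3, Adamts12, Adamts4 and Adamts2 all dip at Set 2, to 3.51, 2.39, 0.42 and 0.57, while that of Adamts1 peaks there at 0.93.

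Levels of the members were ordered by normalized counts per kilobase of exon, an order that depends on the exon lengths used. In Control, Adamts1 led at 362 ± 49.4 (SD, n = 4) and stood above every other member in all libraries. Adamts7 (173 ± 60.2), Adamts5 (144 ± 19.9), Adamts2 (132 ± 31.8) and Adamts9 (112 ± 49.1) followed, and the ranges of neighbours in this order overlapped. Adamts10 (62.6 ± 6.55) and Adamts4 (42.4 ± 14.3) also overlapped with each other, and Adamts12 was far lower at 0.92 ± 0.72, above only Adamts15 and Adamts20. In Notch3IC, Adamts2 (548 ± 217) and Adamts1 (511 ± 65.6) were highest with overlapping ranges, followed by Adamts4 (226 ± 118) and Adamts5 (198 ± 26.0), which overlapped as well. The Adamts4 range, 77.9 to 354 per kb, also overlapped those of Adamts2, Adamts7, Adamts9 and Adamts10. In the Set 2 Notch3IC library the order differed, with Adamts1 (609 per kb) well above Adamts2 (247) and with Adamts4 (77.9) below Adamts5 (237), Adamts7 (139) and Adamts9 (89.0). Adamts7 (137 ± 18.2), Adamts9 (115 ± 29.8) and Adamts10 (75.6 ± 21.2) came next, and Adamts12 was at 23.7 ± 14.6.

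The genes around these proteases were read from lists of relatives, substrates, inhibitors and maturation factors. Across all genes tested, 3.4% were called higher and 0.74% lower, or 5.19% and 2.53% with the matched set as a term. Of the 9 other Adamts proteases, 3 were tested and none was called in either direction by edgeR on condition alone. Among the 7 Adamts-like genes, which encode related proteins without a protease domain, 5 were tested, 2 were called higher and 1 lower. Adamtsl3 had a mean of 58.6 ± 41.1 normalized counts in Control against 266 ± 113 in Notch3IC (SD, n = 4 each; log2 fold change 2.19, SE 0.55, adjusted p = 0.0716), higher in 4 of 4 sets. Papln, which encodes papilin, rose from 21.6 ± 6.88 to 139 ± 88.7 (log2 fold change 2.69, SE 0.61, adjusted p = 0.0512), although in Set 2 its values were 20.3 and 24.9. Thsd4, which encodes Adamtsl6, a fibrillin-binding protein, fell from 622 ± 312 to 143 ± 44.7 (log2 fold change -2.12, SE 0.42, adjusted p = 0.0387) and was lower in 4 of 4 sets without overlap. All 3 calls were lost when the Set 3 Control, the Set 4 Control or the Set 4 Notch3IC library was left out. That of Adamtsl3 was also lost without the Set 1 or Set 3 Notch3IC library, and that of Papln without the Set 2 Control or the Set 3 Notch3IC library. Over the alternative settings the log2 fold changes were 1.90 to 2.68 for Adamtsl3, 2.32 to 3.03 for Papln and -2.39 to -1.79 for Thsd4. Adamtsl4 was the most abundant gene of this list and did not pass the test (log2 fold change -0.12, SE 0.33, adjusted p = 0.900).

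Of 21 substrate genes, 12 were tested, 3 were called higher and none lower, with a median log2 fold change of 1.07. The small proteoglycan biglycan (Bgn) rose from a mean of 12327 ± 5095 in Control to 39816 ± 14290.0 normalized counts in Notch3IC (SD, n = 4 each; log2 fold change 1.69, adjusted p = 0.0464). Fibrillin-1 (Fbn1), the main microfibril protein, had a log2 fold change of 1.56 (adjusted p = 0.0435), and the fibrillar collagen gene Col3a1 had one of 1.30 (adjusted p = 0.0818). These 3 calls were lost as well without the Set 3 Control, the Set 4 Control or the Set 4 Notch3IC library, as was that of Col3a1 without either Set 1 library and those of Bgn and Col3a1 without the Set 3 Notch3IC library. Over the alternative settings the log2 fold changes were 1.47 to 2.04 for Bgn, 1.32 to 1.84 for Fbn1 and 1.01 to 1.60 for Col3a1. In the annotation, 20.1% of the exon bases of Fbn1 overlap a gene on the opposite strand. The most abundant substrates, Fn1 and Col1a1, did not pass the test (log2 fold changes 1.09 and 1.01, adjusted p = 0.134 and 0.166). Each of the 4 sets had more of both in Notch3IC, though hardly so for Fn1 in Set 2, with 119509 normalized counts in Control and 120232 in Notch3IC. With the matched set as a term, 8 of the 12 were called higher, adding Col1a1, Col1a2, Col5a1, Thbs1 and Thbs2, which were named after their values were seen apart from Col1a1. That fit called 645 genes (5.19%) higher in all, against 423 (3.4%) on condition alone. The aggregating proteoglycan versican (Vcan), named after its values were seen, had a log2 fold change of -0.45 (SE 0.31, adjusted p = 0.497). It was lower in 4 of 4 sets, and with the matched set as a term its log2 fold change was -0.53 (SE 0.16, adjusted p = 0.0809), under the fold limit. Dcn and Sdc4, also named after their values were seen, were lower in 4 of 4 sets too. Each had a log2 fold change of -0.47 (adjusted p = 0.809 and 0.278). With the matched set as a term these were -0.53 and -0.49 (adjusted p = 0.0275 and 0.0306), under the fold limit. Of the 12 substrates tested, 9 had a log2 fold change above 0 and 3 below, beside 6020 and 6410 of all 12430 genes tested. Genes for aggrecan, brevican and neurocan (Acan, Bcan and Ncan) had at most 2 counts in any library. Comp, a substrate of the Adamts7 and Adamts12 pair, had 1 to 6 counts per library.

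Of 6 inhibitor and clearance genes, 4 were tested and none was called in either direction. Timp3, which encodes the main tissue inhibitor of these proteases, was at 46538 ± 10559 normalized counts (SD, n = 4) in Control against 38188 ± 17922 in Notch3IC (log2 fold change -0.29, SE 0.32, adjusted p = 0.701). Lrp1, the endocytic receptor that clears several of them, had a log2 fold change of 0.36 (SE 0.21, adjusted p = 0.416). Of 7 maturation and cofactor genes, 6 were tested and 1 was called higher, Fbln1, whose product fibulin-1 is a cofactor of Adamts1. Fbln1 averaged 44.9 ± 17.9 normalized counts in Control against 117 ± 28.6 in Notch3IC (log2 fold change 1.39, SE 0.33, adjusted p = 0.0610), a call that was lost without the Set 3 Control, the Set 4 Control, the Set 1 Notch3IC or the Set 4 Notch3IC library. Its log2 fold change was 1.20 to 1.62 over the alternative settings. Pofut2, the enzyme that adds O-fucose to thrombospondin repeats, had an adjusted p of 0.0406 with a log2 fold change of 0.89, under the fold limit. The convertase gene Furin had a log2 fold change of 0.37 (SE 0.21, adjusted p = 0.407).

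By the Pearson correlation of log2 CPM over the 8 libraries, the genes outside these lists most like Adamts12 were Shf, Zfyve28, Dkk3, Postn and Mdga1 (r from 0.985 to 0.991). Postn, which encodes the matrix protein periostin, went from a mean of 21.8 to 1825 normalized counts. The genes most like Adamts7, the tested member with the lowest fold change, were Gm12942, Adam22, 1700012D01Rik, Pnpla8 and Cybrd1 (r from 0.938 to 0.957). The points share the 8 libraries and their 2 conditions, so these values are given as a description only.

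Markers of other cell types were measured beside the Adamts genes. Of 6 fibroblast and mural cell markers, 4 were tested and 2 were called higher, the pericyte-associated genes Pdgfrb (log2 fold change 5.99, SE 0.83, adjusted p = 0.0169) and Cspg4 (log2 fold change 4.20, SE 0.57, adjusted p = 0.0169). With the matched set as a term, Acta2 was called higher as well (log2 fold change 1.45, SE 0.28, adjusted p = 0.0362). That fit called 3 of the 4 markers higher, beside 5.19% of all genes tested. This list, led by Acta2, summed to 35828, 19071, 11024 and 7426 normalized counts in Control and to 80897, 26139, 37940.1 and 33579 in Notch3IC, higher in Notch3IC in each set, while Thy1 had at most 2 counts in any library. Of 6 leukocyte markers, 1 was tested and none was called by edgeR, and the list summed to 42.5 to 120.4 normalized counts, led by Cd68, with Ptprc at most at 2 counts and Cd3e at 0 in every library. Of 4 endothelial markers, 2 were tested and none was called, and the list, led by Pecam1, summed to 11.9 to 50.3. The part of the mural and mesothelial marker changes in the Adamts values was not tested.

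Upstream sequence was read where the RefSeq promoter table (GRCm38.p6) had an entry, which was the case for 5 of the 10 genes (Adamts1, Adamts2, Adamts9, Adamts12 and Adamts20). The core letters bound by the Notch partner Rbpj, TGGGAA or TTCCCA on the other strand, and the boxes CACGTG and CACGCG or CGCGTG known for Hes and Hey repressors were searched from 250 bases before to 50 after each start. TGGGAA or TTCCCA was in 25.6% of 32851 promoter windows, CACGTG in 7.15% and CACGCG or CGCGTG in 9.27%. Of the 5 genes, Adamts20 held 1 match to TGGGAA and none held a box. The Adamts20 window, at chr15:94404301-94404600, lies inside the gene as GENCODE M21 annotates it (chr15:94270163-94465418, minus strand), so it is not the sequence around that annotation's start. Of the 5 other Adamts proteases with an entry, Adamts13 held TGGGAA, Adamts17 held CACGTG, Adamts14 held TGGGAA and CGCGTG, and Adamts3 and Adamts18 held none. The 250 bases before the start of Adamts2, chr11:50601835-50602084 (plus strand), and of Adamts12, chr15:11064523-11064772 (plus strand), are printed as those of the 2 called members with an entry. The same stretch of Adamts14, chr10:61273420-61273669 (minus strand), is printed beside them as an example with matches, in capitals, and was picked for them.
Adamts2: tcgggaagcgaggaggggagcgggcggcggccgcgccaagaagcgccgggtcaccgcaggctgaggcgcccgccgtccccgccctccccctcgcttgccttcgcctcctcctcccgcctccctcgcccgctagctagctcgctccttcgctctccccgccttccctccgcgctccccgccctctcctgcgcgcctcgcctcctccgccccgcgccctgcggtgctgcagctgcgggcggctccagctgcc
Adamts12: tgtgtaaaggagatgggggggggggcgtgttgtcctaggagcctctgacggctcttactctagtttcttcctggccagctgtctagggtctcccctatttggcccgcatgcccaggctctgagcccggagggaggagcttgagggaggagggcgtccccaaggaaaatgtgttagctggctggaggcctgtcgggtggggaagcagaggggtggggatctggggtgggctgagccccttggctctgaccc
Adamts14: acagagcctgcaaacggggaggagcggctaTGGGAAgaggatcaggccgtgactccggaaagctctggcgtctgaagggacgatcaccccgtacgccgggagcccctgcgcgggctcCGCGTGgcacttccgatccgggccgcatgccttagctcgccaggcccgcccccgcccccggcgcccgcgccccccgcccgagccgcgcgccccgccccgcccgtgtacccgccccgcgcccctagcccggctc
The Adamts2 window was 77.3% G or C with 41 CpG sites, and that of Adamts12 was 62.0% with 7. A match is only a match of letters, and the absence of one says only that these letters are not in the window.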

How the data were processed

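RNA-seq counts were analysed for the 8 libraries of Sets 1 to 4. The deposited values are raw read counts per gene symbol. The study's methods name poly-A selected TruSeq libraries, single-end reads, TopHat, Cufflinks and DESeq, and the submitters' processing notes name the build mm9, with no versions. Counts were fitted with edgeR 4.0.16 in R 4.3.3 (TMM normalization, genes filtered by condition, robust quasi-likelihood F test on condition alone, Benjamini-Hochberg adjustment over all 12430 genes tested), the thresholds following the study. DESeq2 1.42.0, other scalings, filters and thresholds, a fit with the matched set as a term and the omission of each library or set were tried as alternatives. As a check of pairing, the deviation of each library from the mean of its group was compared across genes: Control and Notch3IC libraries of the same set correlated at 0.82, 0.39, 0.57 and 0.39 in Sets 1 to 4, and libraries of different sets at -0.51 to 0.37. The same-set value of Set 4, 0.39, was close to the crossed values of Sets 3 and 4 (0.37 and 0.34). Deviations are taken from group means, which pulls crossed values down, so this contrast is a description only. The sets, which are matched infections in the study, were taken as paired in the fit with the matched set as a term. The main fit, on condition alone, did not use the pairing. For display, raw counts were brought to a common depth, the average library total, with the TMM factors. Exon lengths, overlaps and zinc-site codons came from GENCODE M21 (GRCm38), a later build than that of the files, and were joined by symbol, directly for 20882 of 23284 symbols and through synonyms for 1969. The procedure was tested on simulated data.

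The 10 genes and the lists were chosen with earlier results of these data known. Named genes were the 10, the label checks, the called genes and the 2 most abundant tested genes of each related list, and the 5 genes most correlated with Adamts12 and Adamts7. Other list members and cell type markers were named as examples after their values were seen. Total counts of 15524262 to 28208072 set the precision. Sets are separate infections of 1 cell line. No 2 libraries held identical counts.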

Additional observations from a re-analysis of the deposited data

Results flagged for a closer look

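In groups of 4 libraries, a library was singled out when its gap to the nearest other library, as a share of the whole range, was above Dixon's 95% critical value. Of 22 groups examined (the 8 tested Adamts genes, Adamts3, Adamts14 and Notch3 in either condition), 3 passed, where chance alone gives about 1 in 20, or 1.1. The Notch3IC library of Set 2 stood apart in 2 of them. Adamts1 was at 3229 normalized counts there against 2514 to 2574 in the other Notch3IC libraries (gap share 0.915). Adamts5 was at 2554 against 1951 to 2050.1 (gap share 0.836). For Notch3, the Control library of Set 3 was at 70.8 normalized counts against 38.6 to 42.0 in the other Control libraries (gap share 0.896). What lies behind these values was not tested.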

How the results depend on the processing

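The 3 Adamts genes called higher (Adamts2, Adamts4 and Adamts12) were the same under the replicate block, DESeq2, RLE normalization, library totals alone, no expression filter and an adjusted p under 0.05. They were 2 with at least 10 counts required in every library, where Adamts12 is no longer tested, and 4 with no fold limit, which adds Adamts1. No member was called lower under any setting run. The replicate block called 645 genes higher and 315 lower in all, DESeq2 708 and 192, an adjusted p under 0.05 left 48 lower, and no fold limit gave 210 lower. Of the related genes, the replicate block called 11 higher and 2 lower, DESeq2 10 higher, and an adjusted p under 0.05 left 2 higher. Leaving out libraries or sets gave 0 to 3 members called higher, 0 to 702 genes called higher and 0 to 305 lower in all, and 0 to 12 related genes called higher and 0 to 2 lower, with the lowest values without Set 3 or Set 4. Single libraries also moved the genes called higher in all, 423 in the main fit. They were 75 without the Set 3 Control, 99 without the Set 4 Control and 155 without the Set 4 Notch3IC library, each with 0 related genes called higher. They were 201 without the Set 3 Notch3IC library and 702 without that of Set 2. Adamts9, which was not called, had a log2 fold change of -0.0077 with library totals alone and of -0.20 to 0.32 when libraries or sets were left out. Beyond the changes given above and in the results, the replicate block changed no call of an Adamts protease. The cause of these changes was not tested. With 4 libraries per group, and fewer when some are left out, calls depend on few samples. Adamts15 and Adamts20 are under the depth floor of 3 counts in every library, and Adamts12 is under it in the Set 3 Control library, with 2 counts.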
